A study of Mus musculus with 4 samples.

Results

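The ephrin, Slit and netrin guidance genes are 37 genes of secreted or membrane-bound guidance cues and their receptors. They were taken by symbol from a fixed list of 5 ephrin-A, 3 ephrin-B, 9 EphA, 5 EphB, 3 Slit, 4 Robo and 2 netrin genes and 6 genes of netrin receptors. All 37 were present among the 22096 genes of the files. Of these, 27 had a mean of at least 1 FPKM (fragments per kilobase of transcript scaled to the mapped fragments, a level per length) over the 4 embryos and were tested among 11154 genes in all, and the other 10 were below that level.

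RNA was sequenced from RFP-positive palatal mesenchyme, sorted by flow cytometry from 4 mouse embryos at embryonic day 13.5 (E13.5). The Foxf2-/- group held 2 embryos of genotype Foxf2-/-Osr2RFP/+. The control group held 1 Osr2RFP/+ embryo (Foxf2+/+, called the wildtype control) and 1 Foxf2+/-Osr2RFP/+ embryo (called the heterozygous control), so neither control genotype was replicated. Every embryo, controls included, carried 1 Osr2 allele with the RFP knock-in. The mutants were littermates of the controls that lacked Foxf2, a forkhead transcription factor, in every tissue and not in the palate alone, and the sort kept only cells in which the Osr2 locus was active. Where control values are given as a pair, the wildtype control comes first. The comparison asks which genes differed in palatal mesenchyme without Foxf2.

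Ephrins are ligands held at the cell surface, the A class by a lipid anchor and the B class by a transmembrane segment, and they bind Eph receptor tyrosine kinases on neighbouring cells. Contact can signal into both cells and often leads to repulsion, sorting and boundary formation. Slits are secreted proteins that act through Robo receptors, and netrins are secreted proteins that attract or repel cells through Dcc, Neo1 and the Unc5 receptors. In the face, ephrin-B1 and its EphB receptors are known for their role in palate formation, and human craniofrontonasal syndrome comes from mutation of EFNB1.

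Foxf2 read 85.4 FPKM in the wildtype control, 45.1 in the heterozygous control, and 1.41 and 2.28 in the mutant pair (log2 fold change -5.03, adjusted p = 0.00533 by limma). Osr2 lay between 129 and 147 FPKM in the 4 embryos, and all 8 markers of palatal mesenchyme had a mean of at least 1 FPKM. Of these 8, Pax9 had both mutants above both controls (81.2 and 100.1 FPKM against 127.3 and 127.5 for the mutants), and Prrx1, Twist1 and Pdgfra had both below. On this deposited scale, 9.89% of all genes tested had both mutants above and 35.8% had both below. The libraries differed in relative depth by at most 1.19 times, and their depth in reads is unknown. Over all genes tested, the deposited values were lower in the mutant pair by a median log2 fold change of -0.08, which median-ratio scaling brought to -0.0015. Directions of small size therefore depend on the scale. Values are on the deposited scale unless scaling is named. For the tested members it is stated where scaling changed whether the groups overlapped.

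The tested guidance genes had mean levels from 1.02 FPKM for Epha1 to 108 for Epha3, and none passed the test of the difference between genotypes. limma called 0 of the 27 members at an adjusted p under 0.05 with a change over 1.5-fold, and it called 0.0628% of all genes tested. At an unadjusted p under 0.05 it listed 5 members, Efna3, Ephb1, Efnb2, Unc5d and Epha3. That is 18.5% of the 27, beside 13.0% of all genes tested. After median-ratio scaling it listed 7 members, or 25.9%, beside 11.1% of all genes tested. Epha3 then left the list, and Efna5, Robo1 and Ntn1 joined it. A single member, Efna3, was more than 1.5-fold higher than each control embryo, as were 0.735% of all genes tested, and 0 members were more than 1.5-fold lower, where 0.592% of all genes were. In 9 members both Foxf2-/- values lay above both control values, 33.3% of the members against 9.89% of all genes tested, and in 4 members both lay below, 14.8% against 35.8%. After median-ratio scaling the counts were 13 higher and 1 lower, with Efna4, Efnb1, Ephb2 and Neo1 joining those higher and Epha1, Epha3 and Epha4 no longer lower, where 21.0% of all genes tested were higher and 21.6% lower. The median log2 fold change of the 27 members was 0.03 beside -0.08 for all genes tested, and it was 0.11 beside -0.0015 after scaling. With 2 embryos in each group an exact two-sided permutation test cannot give a p below 0.333, the value of each of the 13 members whose groups did not overlap.

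**Figure D1:**
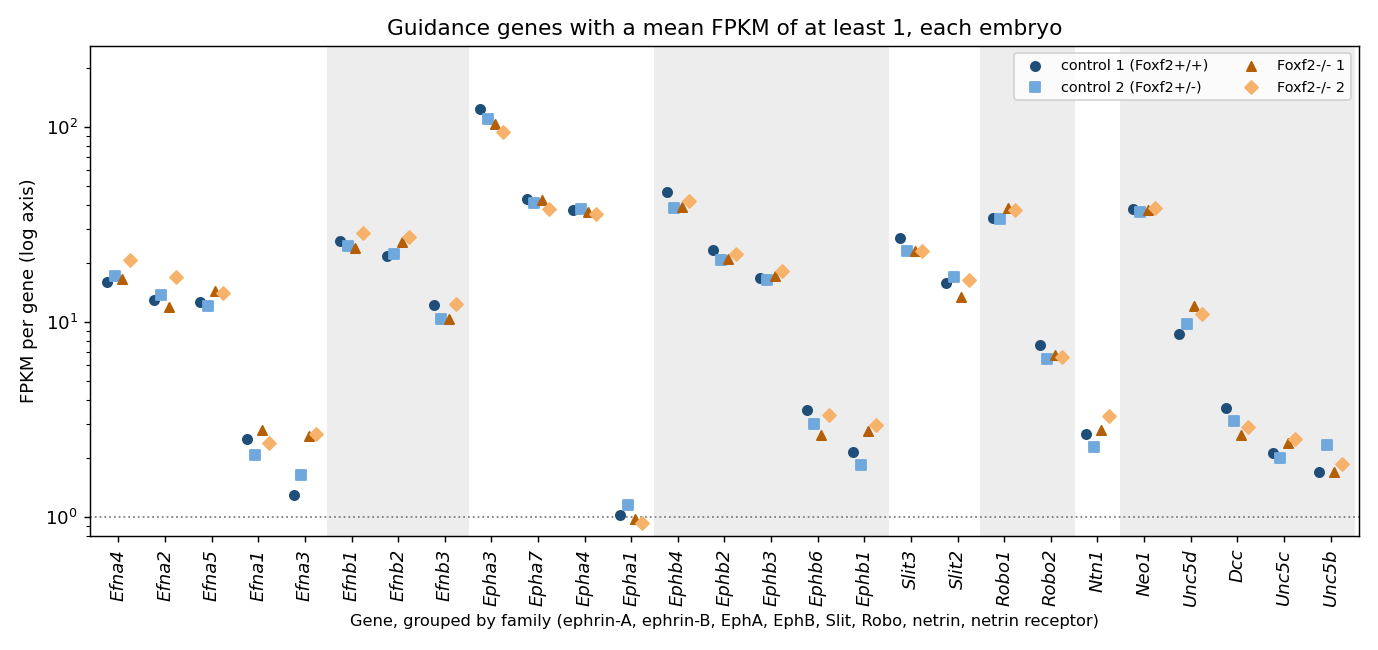
FPKM of the 27 guidance genes with a mean of at least 1, on a log axis, grouped by family and ordered by level within each family; each point is 1 embryo. Epha3 stands highest at 93.7 to 123 FPKM, and only for Efna3 do both Foxf2-/- points stand more than 1.5-fold above each control.

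In bulk RNA fewer cells of a type and less RNA per cell cannot be told apart. Markers of some other cell types also differed between the groups. The summed level of 8 endothelial markers was 0.869 and 1.26 FPKM in the control pair against 1.75 and 2.30 for the mutants. In 4 of the 8, Cdh5, Kdr, Emcn and Egfl7, both mutants were above both controls. Pecam1, Tek and Tie1 had lower means in the mutants. None of the 8 reached a mean of 1 FPKM, and Cldn5 was listed at 0 in every embryo. The 6 Schwann and glial cell markers summed to 1.90 and 1.46 FPKM in the control pair against 6.35 and 2.63 for the mutants, while the 6 muscle markers summed to 0.809 and 0.860 FPKM for the controls against 0.454 and 0.362, with 2 of the 6, Pax7 and Actc1, lower in both mutants and Myog listed at 0 in every embryo. Blood markers were at 18.7 FPKM in the wildtype control and between 112 and 277 in the other 3. The 8 epithelial markers summed to 7.38 and 8.18 FPKM in the control pair against 8.19 and 9.12 for the mutants, and 3 of them, Cdh1, Trp63 and Shh, were above both controls in both mutants. Neuronal markers summed to 3.06 to 7.13, macrophage markers to 5.39 to 6.81 and pericyte markers to 7.64 to 9.71, against 1096 to 1213 for the markers of palatal mesenchyme. Over all genes tested, both mutants were above both controls in 9.89% and below both in 35.8%. The part of these other cell types in the guidance gene values was not tested.

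Among the ephrin-A ligands, Efna4, Efna2 and Efna5 carried 90.9% of the family's FPKM. Efna4 was at 16.0 FPKM in the wildtype control, 17.2 in the heterozygous control, and 16.7 and 20.7 in the mutant pair. Its groups overlapped as deposited. After median-ratio scaling both mutants were above both controls (log2 fold change 0.24). Efna2 was at 12.9 and 13.8 FPKM in the control pair against 12.0 and 17.0 for the mutants, the widest gap between the 2 mutants of any member tested (0.50 on the log2 scale). Its log2 fold change of 0.10 turned to -0.16 without the second Foxf2-/- embryo. Efna5, a ligand that binds several EphA receptors, read 12.7 and 12.1 FPKM in the control pair against 14.4 and 14.0 for the mutants. Both mutant values of Efna5 lay above both controls, by a log2 fold change of 0.20 (SE 0.092, adjusted p = 0.418). Efna1 stayed between 2.09 and 2.79 FPKM and its groups overlapped.

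Efna3 showed the largest difference of the 27 members. Its level was 1.30 FPKM in the wildtype control, 1.65 in the heterozygous control, and 2.60 and 2.66 in the mutant pair. The mutants were near each other and above both controls, with the heterozygous control between the wildtype control and the mutants. The log2 fold change was 0.80 (SE 0.18, limma 95% interval 0.37 to 1.23, adjusted p = 0.212), 0.96 against the wildtype control and 0.64 against the heterozygous control. Efna3 is a weakly expressed gene here, ranking 9716 of 11154, and its 1225-base transcript had a mean read coverage of 1.77 to 4.12. The difference was not past the threshold of the test, and it fell below 1.5-fold with a pseudocount of 1 FPKM in place of 0.1.

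Efna3 (chr3:89118873-89126801, mm9) lies between Efna1 (chr3:89075652-89084873) and Efna4 (chr3:89137315-89141950). Within 100 kb on either side, 12 other genes were tested, and 0 were more than 1.5-fold from both controls. Their log2 fold changes ran from -0.68 to 0.66 with a median of -0.06. Both mutants were above both controls in 1 of the 12, Dpm3, and below both in 3, Flad1, Thbs3 and Krtcap2, where 9.89% and 35.8% of all genes tested were so. Dpm3 was at 9.72 and 13.3 FPKM in the control pair against 15.3 and 21.2 for the mutants, and Flad1 at 2.36 and 3.34 against 1.56 and 1.88. The window was chosen after the values were seen.

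The 3 ephrin-B ligands were all expressed. Efnb1, on chromosome X, was at 25.9 and 24.5 FPKM in the control pair against 23.8 and 28.5 for the mutants. Its groups overlapped as deposited (log2 fold change 0.05, limma 95% interval -0.21 to 0.30). After median-ratio scaling both mutants of Efnb1 were above both controls (log2 fold change 0.13). Efnb2, the ligand best known from arterial endothelium, was at 21.8 and 22.3 FPKM in the control pair against 25.6 and 27.3 for the mutants. The mutants stood above both controls, by a log2 fold change of 0.26 (SE 0.087, adjusted p = 0.319). Efnb3 was at 12.2 and 10.4 FPKM in the control pair against 10.4 and 12.3 for the mutants, with a log2 fold change of 0.01. Added together, the ephrin-B genes gave 59.9 and 57.1 FPKM in the control pair against 59.8 and 68.1 for the mutants, which overlapped. After median-ratio scaling the mutant sums were above both controls.

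The EphA receptors were led by Epha3, which alone gave 57.3% of the family's FPKM and ranked 270 of the 11154 genes tested. Epha3 was at 123 FPKM in the wildtype control, 110 in the heterozygous control, and 104 and 93.7 in the mutant pair. Both mutants were below both controls, with the log2 fold change at -0.24 (SE 0.098, adjusted p = 0.363). After median-ratio scaling the log2 fold change was -0.16 and the groups overlapped. Epha4, an EphA receptor that also binds ephrin-B ligands, was at 37.7 and 37.9 FPKM in the control pair against 36.8 and 35.6 for the mutants. That gap of -0.06 on the log2 scale became 0.02 after scaling, and the groups then overlapped. Epha7 was at 42.9 and 40.7 FPKM in the control pair against 42.2 and 38.2 for the mutants, with overlap. Epha1 stood just inside the filter at 1.03 and 1.16 FPKM in the control pair against 0.975 and 0.932 for the mutants (log2 fold change -0.18, SE 0.24), and this order was also lost after scaling.

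The remaining 5 EphA genes were not tested. Epha5 was the highest of them, between 0.655 and 1.06 FPKM. Epha2, Epha6 and Epha8 had no value above 0.471 FPKM in any embryo, and Epha10 was listed at 0 in all 4. The EphA genes summed to 206 and 191 FPKM in the control pair against 185 and 170 for the mutants. The sums did not overlap as deposited and did after scaling, where they were 197 and 189 in the controls and 196 and 169 in the mutants.

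**Figure D2:**
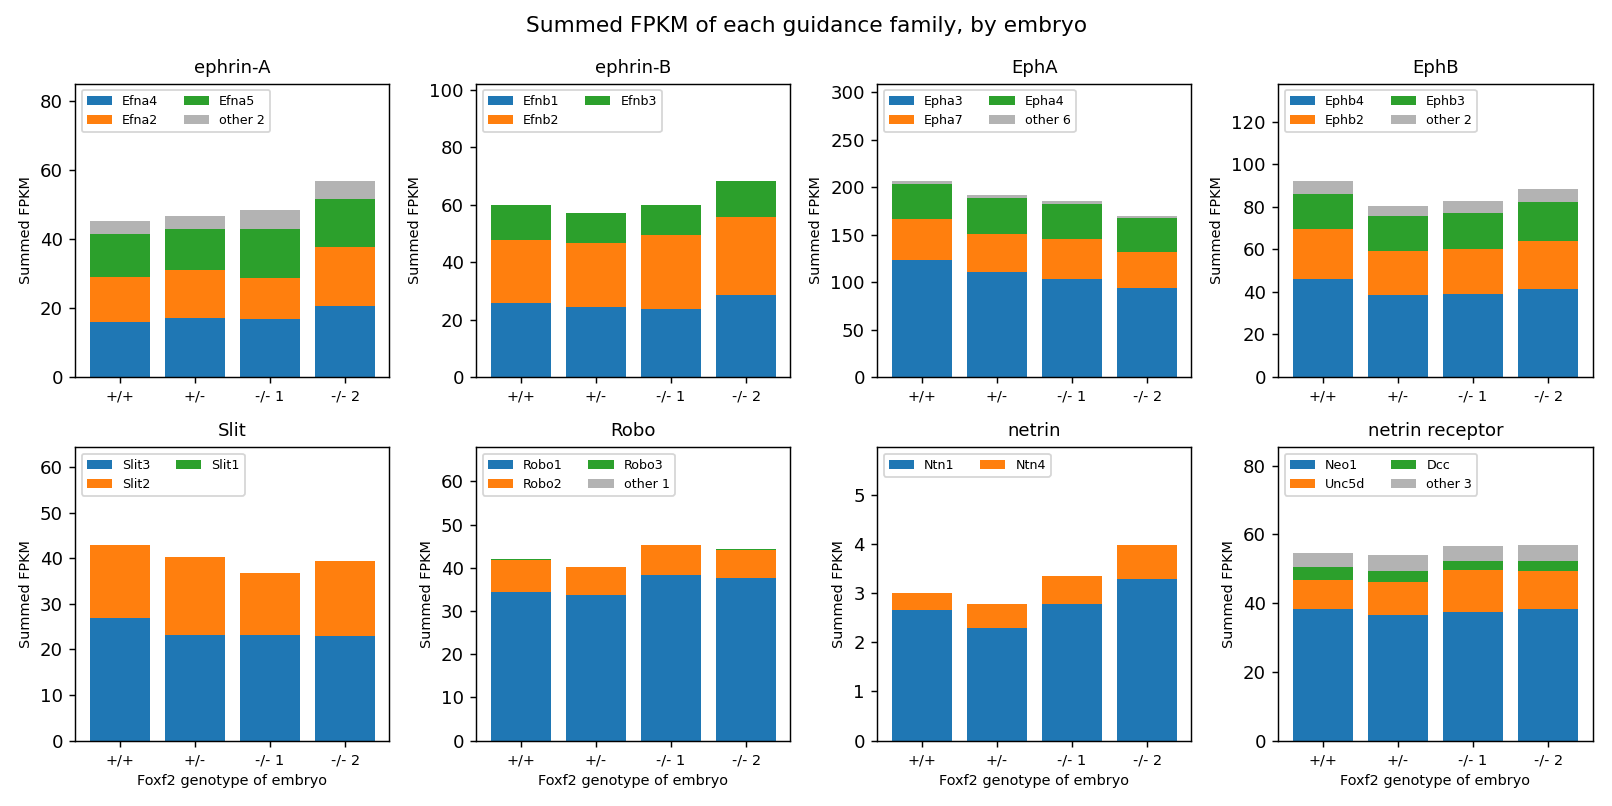
Summed FPKM of the members of each of the 8 families in each embryo, with the 3 highest members in color and the rest in gray; the bars start at 0. The EphA sum is the largest in every embryo at 206 in the wildtype control and 170 in the second Foxf2-/- embryo, and these groups overlap after scaling; the netrin sum is the smallest, at 2.78 to 3.98.

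Of the EphB receptors, which bind the ephrin-B ligands, Ephb4 was the highest. It was at 46.1 FPKM in the wildtype control, 38.6 in the heterozygous control, and 38.9 and 41.5 in the mutant pair. Both mutants lay between the 2 controls. Ephb2 was likewise at 23.3 and 20.7 FPKM in the control pair against 21.1 and 22.3 for the mutants. After median-ratio scaling both mutants of Ephb2 were above both controls (log2 fold change 0.06). Ephb3 was at 16.9 and 16.4 FPKM in the control pair against 17.3 and 18.4 for the mutants, apart by a log2 fold change of 0.10 (SE 0.090, adjusted p = 0.677). Ephb6, whose kinase domain lacks activity, ranged from 2.65 to 3.54 FPKM with overlap.

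Ephb1 was the member with the second largest difference. Its level was 2.14 FPKM in the wildtype control, 1.86 in the heterozygous control, and 2.75 and 2.96 in the mutant pair. Both mutants stood above both controls, by a log2 fold change of 0.49 (SE 0.16, limma 95% interval 0.12 to 0.86, adjusted p = 0.308). Against the heterozygous control alone the mutant mean was more than 1.5-fold higher, and against the wildtype control it was not, with log2 differences of 0.59 and 0.40. The read coverage behind these values was low, a mean of 2.91 to 4.58 over the transcript.

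The 2 RefSeq entries of Ephb1 took different shares of its FPKM in the 4 embryos. NM_173447, of 4667 bases, is longer than NM_001168296 by 123 bases. In the GENCODE vM1 annotation of mm9, a transcript of the same 4667 bases has a coding exon of 123 bases that the other annotated form skips. It is exon 10 of 16, on the minus strand of chr9:101886412-101886534. It adds 41 codons, from base 1760 of a coding sequence of 2952 bases. The exon is shown here because its length is that of the difference between the entries, with the exon in capitals and 15 intron bases on each side in lower case.

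Ephb1 exon 10: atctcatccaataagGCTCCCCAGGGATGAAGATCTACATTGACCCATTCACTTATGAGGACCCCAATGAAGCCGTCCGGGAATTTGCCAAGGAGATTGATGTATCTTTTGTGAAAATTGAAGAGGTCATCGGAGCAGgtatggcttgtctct

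The entry of the length that includes this exon took 0.0035% of Ephb1 FPKM in the wildtype control and 50.2% in the heterozygous control. In the Foxf2-/- embryos it took 97.4% and 96.2%. The shares of the mutants were near each other, while those of the controls were far apart, so the mean shift of 71.8 percentage points rests on 2 control embryos that differ from each other by 50.2 points. Of 1593 genes with 2 entries, 5.65% had shares that did not overlap between groups and shifted by at least 25 points, as did 2 of the 7 members with 2 entries, Ephb1 and Ephb6. Ephb1 had the sixth largest shift of the 1593. The threshold of 25 points was set after the values were seen. Such shares are estimates that the program made at low coverage, and they carry no error in the files. When the longest entry alone was counted for each gene, the log2 fold change of Ephb1 was 3.15 (limma adjusted p = 0.432). Ephb1 then joined Efna3 past 1.5-fold against both controls. The longer entry of Ephb1 was at 7.5e-05 and 0.933 FPKM in the control pair against 2.68 and 2.84 for the mutants. The wildtype value is far below the pseudocount, so the size of 3.15 depends on that constant.

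The other 6 genes with a pair of entries were given shares as well, and none had a like shift that both mutants shared. The longer entry of Efna5 differs by 81 bases and took 88.6% and 76.0% of its FPKM in the control pair against 82.3% and 75.7% for the mutants. The longer entry of Ephb4 differs by 27 bases and took between 5.52% and 8.21% in every embryo. Coding stretches of just these lengths are annotated for both genes in GENCODE vM1, with 27 and 9 codons. The annotated transcripts that hold them have 4032 and 4296 bases, while the longer entries have 5259 and 4361. Only the difference in length therefore ties each stretch to its entry. The stretches are printed in capitals beside 15 flanking bases, as cases where both entries were estimated to be present in every embryo at like shares. The Efna5 stretch is exon 4 of 5, on the minus strand of chr17:62962665-62962745, and the Ephb4 stretch is the start of exon 7 of 17, on the plus strand of chr5:137803591-137803617, so that the bases after it belong to the exon too.

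Efna5 exon 4: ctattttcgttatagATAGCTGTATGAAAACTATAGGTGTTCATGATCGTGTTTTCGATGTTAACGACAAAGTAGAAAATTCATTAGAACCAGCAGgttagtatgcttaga

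Ephb4 start of exon 7: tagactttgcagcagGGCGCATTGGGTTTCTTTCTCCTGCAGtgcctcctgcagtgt

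Epha7 has a long entry of 6732 bases and a short one of 3272 bases, and the long one held 94.5% to 95.4% of its FPKM. Truncated Epha7 forms without the kinase domain are known. For Neo1 the longer entry took 3.05% to 7.57%, and for Efna1 83.7% to 99.99%. In Ephb6 the 2 entries differ by 4 bases, and the longer took between 99.87% and 99.99% in 3 embryos and 50.0% in the first Foxf2-/- embryo, so that its shift of -25.0 points comes from 1 library.

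**Figure D3:**
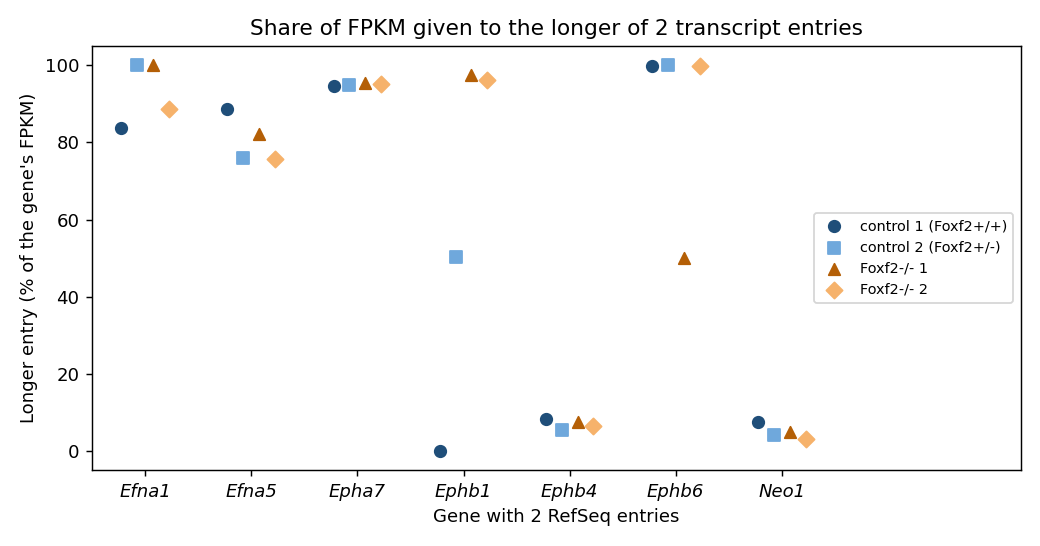
Share of each gene's FPKM that the longer of its 2 RefSeq entries took, in percent, for the 7 members with 2 entries; each point is 1 embryo. Ephb1 runs from 0.0035% in the wildtype control over 50.2% in the heterozygous control to 97.4% and 96.2% in the mutants, and Ephb6 has a single low point of 50.0%.

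Slit3 and Slit2 were the Slits of these cells. Slit3 was at 27.0 FPKM in the wildtype control, 23.2 in the heterozygous control, and 23.2 and 23.1 in the mutant pair. Slit2 was at 15.9 and 17.1 FPKM in the control pair against 13.5 and 16.4 for the mutants. The groups overlapped for both genes, with log2 fold changes of -0.11 and -0.15. That of Slit3 was -0.0019 without the wildtype control, and that of Slit2 was -0.0075 without the first Foxf2-/- embryo. Slit1, in contrast, did not exceed 0.0724 FPKM. The summed Slit level was 42.9 and 40.3 FPKM in the control pair against 36.7 and 39.5 for the mutants. It was lower in both mutants on either scale, with a ratio of group means of 0.916 as deposited and 0.968 after scaling. The ephrin-A, Robo, netrin and netrin receptor sums were higher in both mutants on either scale. Their ratios after scaling were 1.20, 1.15, 1.34 and 1.11.

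Among the Slit receptors Robo1 held 83.9% of the FPKM. It was at 34.3 and 33.7 FPKM in the control pair against 38.4 and 37.6 for the mutants. The 2 embryos of each group lay close together and the groups were apart on both scales (log2 fold change 0.16, SE 0.082, adjusted p = 0.459). Robo2, its neighbour on chromosome 16, was at 7.61 and 6.50 FPKM in the control pair against 6.79 and 6.60 for the mutants, with overlap. Robo3, known from commissural neurons, and Robo4, known from endothelium, were not above 0.0477 FPKM in any embryo.

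Of the netrins, only Ntn1 and Ntn4 were among the 37 members, and they gave the lowest summed FPKM of the 8 families. Ntn3, from the list of other pathway genes, was higher than both, at 6.15 to 8.16 FPKM with overlap between the groups. Ntn1 was at 2.66 and 2.29 FPKM in the control pair against 2.79 and 3.29 for the mutants. Both mutants were above both controls, by a log2 fold change of 0.29 (SE 0.16, adjusted p = 0.492). Ntn4, a basement membrane netrin, was below the filter at 0.353 and 0.492 FPKM in the control pair against 0.562 and 0.687 for the mutants.

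Of the netrin receptors Neo1 was the most abundant, with 67.9% of the family's FPKM, and its groups overlapped as deposited. It was at 38.2 and 36.4 FPKM in the control pair against 37.5 and 38.4 for the mutants (log2 fold change 0.03, limma 95% interval -0.17 to 0.22). After median-ratio scaling both mutants of Neo1 were above both controls (log2 fold change 0.11). Dcc, the classic netrin receptor of axons and a relative of Neo1, was far less abundant and read 3.63 and 3.10 FPKM in the control pair against 2.64 and 2.90 for the mutants. Both mutant values of Dcc lay below both controls on either scale, which held for no other tested member (log2 fold change -0.27, SE 0.15, adjusted p = 0.481).

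The Unc5 receptors mediate repulsion from netrin. Unc5d was at 8.67 FPKM in the wildtype control, 9.78 in the heterozygous control, and 12.1 and 11.0 in the mutant pair. Both mutants were above both controls, by a log2 fold change of 0.32 (SE 0.11, limma 95% interval 0.07 to 0.58, adjusted p = 0.324). Unc5c was at 2.13 and 2.02 FPKM in the control pair against 2.39 and 2.53 for the mutants, apart by 0.23 on the log2 scale (SE 0.15, adjusted p = 0.557). For Unc5b, between 1.70 and 2.36 FPKM, the groups overlapped. Its mutant mean differed by 0.06 on the log2 scale from the wildtype control and by -0.39 from the heterozygous control. Unc5a did not exceed 0.256 FPKM.

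**Figure D4:**
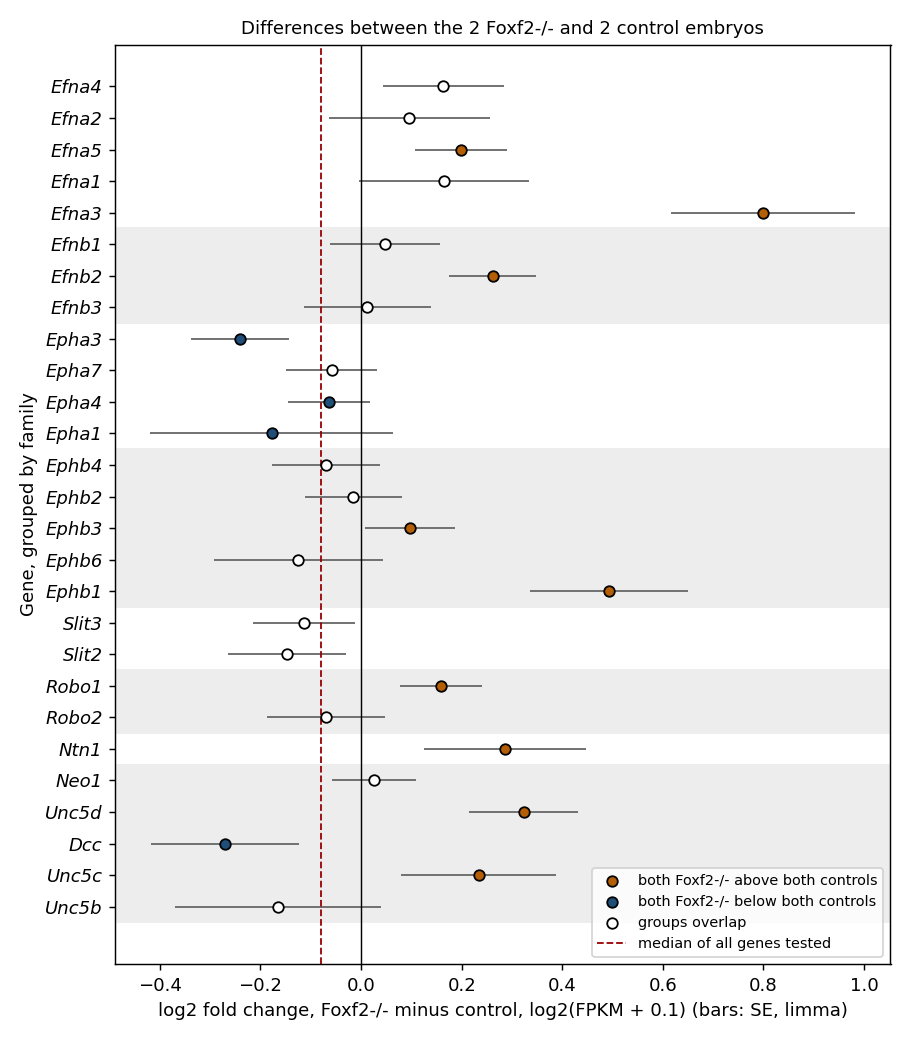
Log2 fold change of the 27 tested members, Foxf2-/- minus control on log2(FPKM + 0.1), with bars for the limma SE; filled points mark genes whose 2 groups do not overlap, and the dashed line is the median of all genes tested, -0.08. Efna3 at 0.80 and Ephb1 at 0.49 lie farthest from 0, and no member passed the adjusted threshold.

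On the deposited scale, the limma 95% interval of the difference lay wholly within 1.5-fold in either direction for 20 of the 27 members. It contained 0 for 22. Its half-width was 0.19 to 0.56 on the log2 scale. Over the 27 members, the SD of the log2 difference between the 2 Foxf2-/- embryos was 0.17. Between the 2 controls, which differ in genotype, it was 0.18.

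From a separate list of 54 ligands, co-receptors and effectors of the same pathways, 53 were in the files and 47 were tested. limma called 0 of the 47, and 6, or 12.8%, had an unadjusted p under 0.05. None was more than 1.5-fold from both controls. On the deposited scale, both mutants were above both controls in 7 and below both in 13. These were 14.9% and 27.7% of the list, beside 9.89% and 35.8% of all genes tested. The median log2 fold change was -0.04, beside -0.08 for all genes tested. By role, the count of genes higher and lower in this sense was 2 and 1 of 7 tested ligands and 0 and 1 of 5 co-receptors and heparan sulfate proteins. It was 3 and 6 of 16 Eph and ephrin effectors, 0 and 3 of 9 Robo effectors, and 2 and 2 of 10 netrin receptor effectors. For this list the counts were not made after median-ratio scaling, so small differences among them may depend on the scale.

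Of those 20, the 5 with the largest differences were Dapk1, Flrt3, Adam10, Ptpn13 and Src. Dapk1, a death-associated kinase linked to Unc5 signalling, was at 4.29 and 5.48 FPKM in the control pair against 6.34 and 7.30 for the mutants. Flrt3, a membrane protein that binds Unc5 receptors and Robo1, was at 22.6 and 24.8 FPKM in the control pair against 29.9 and 30.5 for the mutants. These were the higher ones together with the kinase Src, at 3.94 and 3.98 FPKM against 4.74 and 4.90. Adam10, a protease that cleaves ephrins, was lower, at 7.89 and 7.48 FPKM in the control pair against 5.82 and 6.23 for the mutants. The phosphatase Ptpn13 was lower too, at 7.23 and 6.86 FPKM against 5.70 and 5.41. The 5 log2 fold changes were 0.48 for Dapk1, 0.35 for Flrt3, -0.35 for Adam10, -0.34 for Ptpn13 and 0.28 for Src, with adjusted p-values from 0.253 to 0.373.

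RefSeq promoter windows of 300 bases in the GRCm38.p6 build were at hand for 32 members, 37 windows in all. The forkhead core TGTTTA, sought on both strands as TGTTTA or TAAACA, was in 1 of them, that of Epha6, and in 13.4% of the 32851 windows of all genes. The member windows had a median GC content of 65.0% beside 52.7% over all windows. The windows cover only the sequence around annotated start sites, and sites elsewhere were not sought.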

How the data were processed

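FPKM and coverage values from 4 deposited tables, 1 per embryo, were analysed. The authors sorted RFP-positive cells, made Nextera libraries, used Tophat with Bowtie (version 0.12.7 per the submitters' processing notes) to place single-end reads on mm9, and deposited FPKM by RefSeq transcript in a Cufflinks table format. The deposited coverage is a mean read depth per transcript that the authors did not scale between libraries. Its ratio to FPKM was constant within an embryo and gave relative depths of 1, 1.19, 1.02 and 1.14. Read counts could not be recovered from the values, so intervals for counting error are not given. The options of the program that estimated FPKM and the read length are not given in the sources used here.

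FPKM of 28107 entries was summed by symbol to 22096 genes, and 10 genes with a failed estimate were left out. Genes with a mean of at least 1 FPKM and an entry of at least 200 bases were tested with limma 3.58.1 (R 4.3.3, variance trend) on log2(FPKM + 0.1), Foxf2-/- against control, with Benjamini-Hochberg adjustment over all 11154 genes. This scale understates changes of low genes. A call needed an adjusted p under 0.05 and a change over 1.5-fold. The function was tested on simulated data. The p-values rest on the spread within the 2 groups of these 4 embryos, moderated by limma toward a trend over all genes tested. The spread of the controls includes the difference between their 2 genotypes. No batch was labelled. Summaries used pandas 2.3.3 and scipy 1.17.1 under Python 3.11.15. The members, the gene lists and the tests were chosen with earlier results of these data known. Values in every embryo are given for members past a threshold or with groups apart and for the 3 highest of each family. Pathway genes are named if called, past 1.5-fold against both controls, or among the 5 with the largest change and groups apart. Alternatives varied the pseudocount, filter, scaling, entries, fit and embryos. Exon sequences come from the mm9 (NCBIM37) genome with GENCODE vM1.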

Additional observations from a re-analysis of the deposited data

How the results depend on the processing

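limma called 0 members and 0 of the other pathway genes under all 16 alternatives, which for the pathway genes were added after the data were seen. The lowest adjusted p of a named member was 0.132, for Efna3 with the number of null alleles as a linear term. The count of members past 1.5-fold against both controls was 0 with a pseudocount of 1 or a mean FPKM of at least 5, where Efna3 was no longer tested, and 2 with the longest entry only, where Ephb1 joined Efna3. Leaving out 1 embryo gave 1 to 2, and it was Ephb1 that joined without the Foxf2+/+ embryo. The count of members whose groups did not overlap was 7 at a mean FPKM of at least 5, where 18 members were tested, and 19 to 21 with 1 embryo left out, since a group of 1 overlaps less easily. Of 378 values for 24 named members, 356 kept their direction and 22, in 9 members, reversed, none of them called. With median-ratio scaling and quantile normalization the log2 fold change was 0.01689 and 0.01954 for Epha4, 0.02153 and 0.01811 for Epha7, 0.06437 and 0.05121 for Ephb2, 0.01055 and 0.004945 for Ephb4, and 0.009642 and 0.009659 for Robo2. It was -0.035 for Efnb3 with the linear term and -0.4961 for Neo1 with the longest entry only, where 92.4% or more of its FPKM is left out. Leaving out 1 embryo gave -0.1554 to 0.3475 for Efna2, -0.08197 to 0.1768 for Efnb1, -0.1096 to 0.1342 for Efnb3, -0.1309 to 0.01355 for Epha7, -0.09795 to 0.06659 for Ephb2, -0.1981 to 0.05877 for Ephb4, -0.1819 to 0.04255 for Robo2 and -0.007042 to 0.05913 for Neo1, where the lone embryo of a group was assumed to vary like the others. No paired analysis was possible because the control embryos have different genotypes and carry no replicate numbers that pair them with mutants. Each control genotype had 1 embryo, and Efna3 and Ephb1 rest on low coverage, as do other members of low FPKM.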
